A study of Mus musculus with 28 samples.

Results

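Mesenchymal cells of the mouse duodenum were profiled by mRNA sequencing in 2 states, fresh and immortalised. The members of this comparison are the 2 mesenchymal samples among the 28 samples of the series, chosen by their labels, and the other 26 are organoids of small-intestinal epithelium. The title of the series concerns ligands of the Tgfb superfamily and the enterocytes of the villus tip, and mesenchymal cells are a known source of such ligands. Both samples carry the genotype PdgfraH2BeGFP, a reporter in which the Pdgfra locus drives a nuclear green fluorescent protein, and both are labelled as Pdgfra positive small intestinal mesenchyme. The fresh sample is labelled untreated. The immortalised sample is labelled as immortalised and sorted, and its title carries the word HIGH. Per the labels' protocols, duodenal cells were freed with collagenase D and dispase over 35 minutes, plated, and cleared of cells that did not adhere. The immortalised cells were then given the E6 gene of human papillomavirus HPV16 by retrovirus, selected with puromycin at 1 μg/ml, and sorted into eGFPlow and eGFPhigh fractions that were expanded separately. The labels do not say whether the fresh sample had been plated or sorted, how many animals went into either sample, how many passages lay between them, or how many clones the immortalised culture held. Age and sex are not given in the labels used here.

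The subepithelial mesenchyme of the gut is made of several fibroblast types that instruct the epithelium above them. Telocytes with high Pdgfra lie against the villus and the crypt neck and secrete BMP ligands, which favour differentiation. Fibroblasts with low Pdgfra around the crypt base secrete R-spondins, Wnt ligands and BMP antagonists such as gremlin, which keep stem cells dividing. E6 directs the tumour suppressor p53 to degradation, and cultured fibroblasts often take on contractile features.

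Levels are TPM, read shares scaled by transcript length and by the library's total, so levels of different genes can be compared within a sample. TPM keeps no read depth, so the depth of both libraries is unknown. With 1 sample in each state there is no estimate of the spread between cultures, no difference was tested, and each value below compares these 2 libraries. A gene is called higher or lower where the difference of log2(TPM + 1), immortalised minus fresh, reached 2-fold on that scale, among genes at a mean of at least 1 TPM. That scale understates the change of low genes. Of 13652 such genes, 854 (6.26%) were higher and 1464 (10.7%) were lower in the immortalised sample. These shares are the background for each count below. The median difference over those genes was -0.02, and the correlation across genes of log2(TPM + 1) was r = 0.873, given as a description, since genes are not replicates. Mitochondrial genes made up 7.44% of TPM in the fresh and 8.47% in the immortalised sample. The lists below were chosen with earlier results of these data known, so their shares beside the background describe the members picked and test nothing. They hold 832 different genes, of which 651 passed the filter. Of these 60 were higher and 208 lower. A bulk sample cannot tell fewer cells of a type from less RNA per cell, which holds for each difference below.

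**Figure D1:**
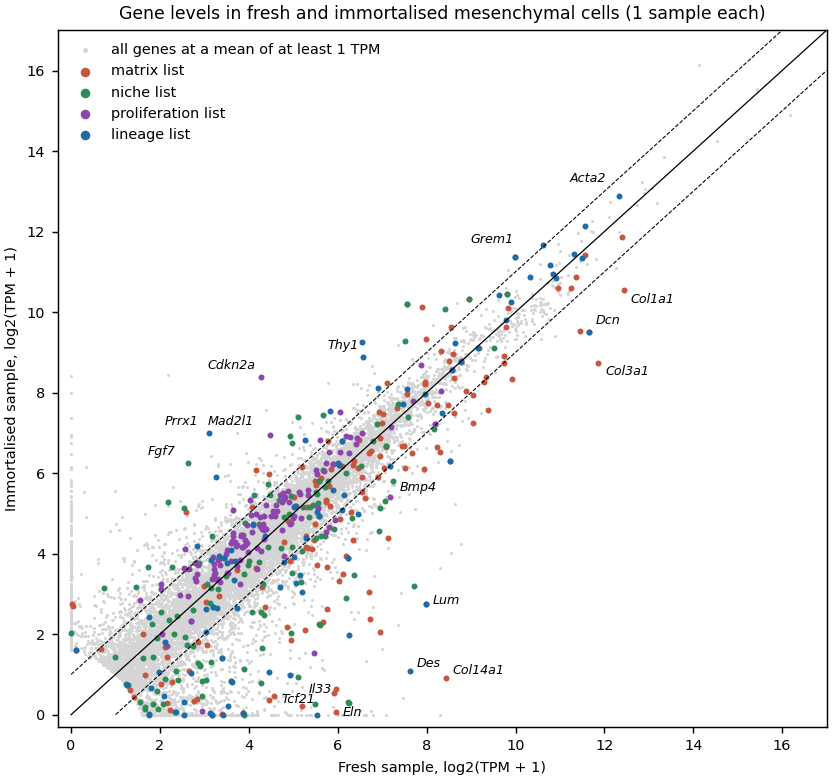
Level of each gene at a mean of at least 1 TPM in the fresh sample (x axis) and the immortalised sample (y axis), both as log2(TPM + 1), 1 sample each. Coloured points are members of the lineage, matrix, niche and proliferation lists, the solid line marks equal levels and the dashed lines 2-fold. Proliferation genes lie along and slightly above the line, while many matrix genes lie below it, with Col14a1 at -7.52 and Cdkn2a at 4.11.

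Of 120 lineage genes 91 passed the filter, 11 were higher and 33 lower, which is 12.1% and 36.3% of those that passed. Pdgfra itself, the receptor for platelet-derived growth factor that the reporter reads, was at 37.5 TPM in the fresh and 113 TPM in the immortalised sample. The sort used fluorescence driven by this locus, so its level is a check of the labels and not a finding. Several general markers of fibroblasts were abundant in both samples. Vimentin, the intermediate filament Vim, was at 1830.2 TPM in the fresh and 1976 TPM in the immortalised sample. Lgals1, a galectin of stromal cells, was at 2559 and 2771 TPM, and Eng, a coreceptor for Tgfb ligands, at 64.6 and 72.5 TPM. These 3 markers differed by less than 0.2 on the log2 scale. Of 18 pan-mesenchymal genes in the list, 18 passed the filter, 7 were higher and 6 lower. The higher ones were led by S100a4, a calcium-binding protein of motile cells, from 91.9 to 611 TPM, Ly6a, the surface antigen Sca-1, from 8.53 to 58.6 TPM, and Thy1, a surface glycoprotein of fibroblasts, from 93.7 to 474 TPM. Cd44, the hyaluronan receptor, went from 55.7 to 186 TPM. The lower ones were led by Lum, the proteoglycan lumican, from 251 to 5.76 TPM, and Serping1, an inhibitor of complement, from 75.0 to 2.92 TPM. Pdgfrb, the sister receptor of Pdgfra, was at 144 and 70.9 TPM, just past the 2-fold line at -1.01. Of the same 18 genes, Nt5e, the surface enzyme CD73, was near 0 in the immortalised sample, at 4.05 and 0.0430 TPM, and Dpt, dermatopontin, near 0 in the fresh one, at 0.0725 and 2.06 TPM.

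The gene that defines telocytes was near 0 in both samples. Foxl1, a forkhead transcription factor, was at 0.0218 TPM in the fresh and 0.0420 TPM in the immortalised sample. Of the 16 genes of this group 8 passed the filter, 0 were higher and 3 lower. F3, tissue factor, was at 435 and 433 TPM, and Tnc, the matrix protein tenascin C, at 379 and 378 TPM, which makes them the most abundant genes of the group and those that differed least. Adamdec1, a protease of lamina propria fibroblasts, went from 7.68 to 0.0235 TPM, and Cxcl14, a chemokine of villus fibroblasts, went from 8.00 TPM to a listed 0. Nrg1, an EGF family ligand, was at 8.15 and 5.35 TPM. Several general fibroblast genes were thus abundant in both samples, while the defining telocyte gene was near 0 in each.

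Genes of crypt base and adventitial fibroblasts were mixed. Of 14, 12 passed the filter, 1 was higher and 6 were lower. The higher one was Grem1, the BMP antagonist gremlin, at 1016 TPM in the fresh and 2621 TPM in the immortalised sample, a difference of 1.37. Cd81, a tetraspanin of crypt base fibroblasts, was at 186 and 272 TPM, and Fgf10, an epithelial growth factor, at 67.0 and 110.5 TPM. The lower genes included Dpp4, a surface peptidase of adventitial fibroblasts, from 9.68 TPM to a listed 0, Cd55, a complement regulator, from 29.4 to 0.974 TPM, and Ogn, the proteoglycan osteoglycin, from 368 to 77.2 TPM. Pi16, another adventitial marker, was near 0 in both samples, at 0.0285 and 0 TPM.

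The transcription factors of gut mesenchyme separated into a kept and a reduced set. Of 42 in the list, 31 passed the filter, 2 were higher, 14 lower and 15 within 2-fold. Tcf21, a factor of visceral mesenchyme, went from 45.6 TPM to a listed 0. Gata6, a zinc finger factor of foregut and midgut, went from 11.4 to 0.760 TPM, and Twist2 went from 4.80 TPM to a listed 0. Hand2 went from 32.2 to 8.65 TPM, and Nkx2-3, a homeobox factor of gut and spleen mesenchyme, from 86.9 to 30.9 TPM. Foxf1 and Foxf2, forkhead factors that act downstream of Hedgehog in gut mesenchyme, went from 67.7 to 33.0 and from 31.1 to 14.2 TPM. Kept within 2-fold were Zeb1 (32.0 and 35.5 TPM), Zeb2 (58.5 and 46.7 TPM), Snai2 (31.3 and 34.9 TPM) and Runx1 (19.6 and 20.7 TPM), factors tied to the mesenchymal state. The 2 higher factors were Prrx1, a homeobox factor of limb, facial and activated fibroblasts, from 7.64 to 127 TPM, and Klf4, a Krüppel-like factor, from 6.15 to 17.4 TPM. Prrx1 had the largest positive difference of the lineage list, at 3.89.

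Hox genes mark position along the body axis. Of 35, 20 passed the filter, 0 were higher and 7 lower. Hoxa2 to Hoxa5, Hoxb2 to Hoxb9, Hoxc4, Hoxc5, Hoxc6, Hoxc8 and Hoxd8 were above 1 TPM in both samples, Hoxa6 and Hoxa7 in the fresh sample alone, and Hoxa10, Hoxb13, Hoxc10 and Hoxd13 were listed at 0 in each. The most abundant were Hoxc6, at 49.4 and 35.7 TPM, and Hoxb3, at 32.7 and 22.4 TPM. The lower ones included Hoxa7, from 7.99 to 0.322 TPM, Hoxa6, from 3.25 to 0.165 TPM, and Hoxa5, from 21.02 to 5.10 TPM. Hoxb9 was the gene with the largest difference above 0, at 15.9 and 28.3 TPM, short of the 2-fold line.

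Contractile genes were abundant in both samples and differed little. Acta2, smooth muscle actin, was at 5112 TPM in the fresh and 7499 TPM in the immortalised sample, and Tagln, the actin-binding protein transgelin, at 3011 and 4505 TPM. Of 20 smooth muscle genes 17 passed the filter, 16 stayed within 2-fold, 0 were higher and 1 was lower. The summed level of the 20 genes was 20488 TPM in the fresh and 25850.0 TPM in the immortalised sample. The lower one was Des, the muscle intermediate filament desmin, from 197 to 1.13 TPM. Myh11, smooth muscle myosin, was at 322 and 178 TPM, and Cnn1, calponin, at 789 and 1363 TPM. Genes of pericytes, the mural cells of capillaries, were low apart from Mcam: Rgs5 was at 1.59 and 0.0268 TPM, Notch3 at 9.44 and 1.66 TPM, and Mcam, an adhesion receptor of mural cells, at 118 and 276 TPM.

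The lists of markers of other cell types had lower sums in the immortalised sample in 6 of 7 cases. Glia and neurons were the exception, through Uchl1 and Tubb3, given below. Mesothelium, the lining of the outer gut wall, differed most. All 7 mesothelial markers were present in the fresh sample, with a summed level of 247 TPM, and the same 7 summed to 1.33 TPM in the immortalised sample. Upk1b and Upk3b, uroplakins, were at 106 and 58.2 TPM in the fresh and 0.0627 and 0.141 TPM in the immortalised sample. Msln, mesothelin, went from 35.1 to 0.0861 TPM, Wt1, the Wilms tumour factor, from 27.1 to 0.0531 TPM, and Lrrn4 and Bnc1 from 8.56 and 6.79 TPM to a listed 0. The 7 genes gave differences between -6.65 and -1.73.

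The 18 blood and immune markers summed to 145 TPM in the fresh and 12.4 TPM in the immortalised sample. Lyz2, lysozyme, made up most of this sum, at 111 and 9.81 TPM, while Ptprc, the antigen CD45 that defines leukocytes, was at 0.253 and 0.0118 TPM. Tyrobp, C1qa and C1qb, genes of macrophages, went from 8.01, 4.94 and 5.99 TPM to a listed 0, and Cd3e of T cells was listed at 0 in both samples. The 13 endothelial markers summed to 53.5 and 4.34 TPM, with Pecam1 at 4.06 and 0.473 TPM and Cdh5, the cadherin of endothelium, at 4.81 TPM and a listed 0. The 13 glial and neuronal genes summed to 95.6 and 130.4 TPM, yet of the 7 that passed the filter 5 were lower and 1 higher. Among the lower ones, Sox10 and Ngfr, which mark enteric glia, went from 3.13 and 23.0 TPM to a listed 0. Uchl1, a ubiquitin hydrolase of neurons, went the other way, from 17.7 to 82.0 TPM. Tubb3 of the same list was within 2-fold, at 33.2 and 46.9 TPM. Uchl1 and Tubb3 made up nearly all of the sum in the immortalised sample. Kit of the interstitial cells of Cajal was at 1.03 and 0.0176 TPM.

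Epithelial carry-over was small. The 16 epithelial markers summed to 37.1 TPM in the fresh and 8.97 TPM in the immortalised sample. The 3 untreated organoid samples of another table, which the authors scaled separately, gave 6292, 6488 and 6991 TPM for the same genes. Cdh1, Vil1 and Cdx2, which define intestinal epithelium, were listed at 0 in both mesenchymal samples, and Epcam was at 0.161 and 0 TPM. The keratins Krt8 and Krt18, which mesothelium also makes, were at 9.10 and 19.2 TPM in the fresh sample. They were at 0 and 0.0868 TPM in the immortalised one. Krt19 and Lgals4 were within 2-fold, at 5.37 and 6.65 TPM and at 2.58 and 2.08 TPM, and made up nearly all of the immortalised sum.

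**Figure D2:**
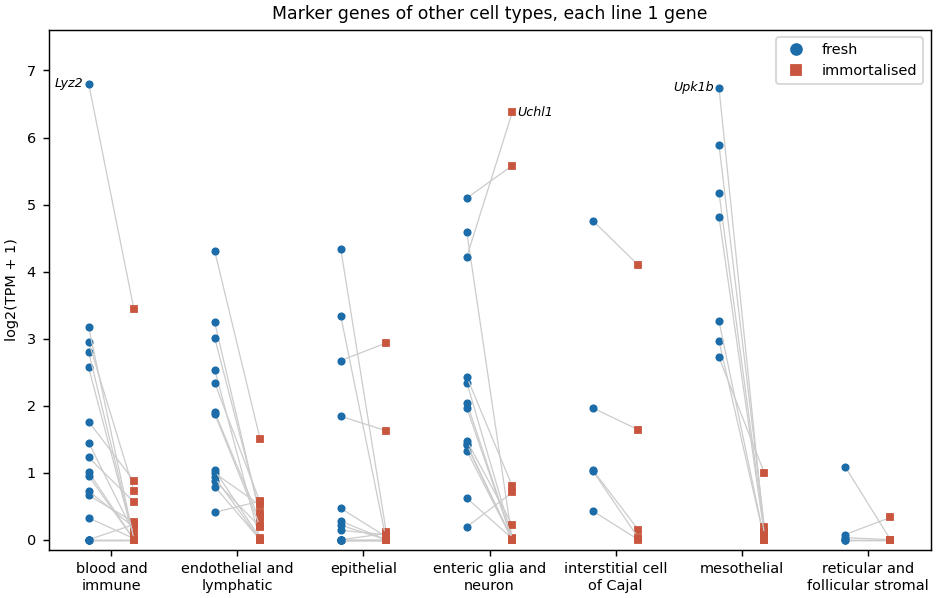
Levels of marker genes of 7 other cell types as log2(TPM + 1), with a circle for the fresh and a square for the immortalised sample and a line joining the values of each gene. The 7 mesothelial genes stand between 5.58 and 106 TPM in the fresh sample and below 1 TPM in the immortalised sample.

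Of the lineage, matrix, niche and proliferation lists, matrix had the lowest median difference. Of 178 matrix genes, 151 passed the filter, 64 were lower, 14 higher and 73 within 2-fold, with a median difference of -0.73 against -0.02 over all genes. The lower share was 42.4% against 10.7% of all genes. The mesothelial markers were lower over the same pair of samples, from 247 to 1.33 TPM in sum, and their part in the matrix differences was not tested.

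Fibrillar collagens, the ropes of connective tissue, were lower in most of the group. Col1a1 was at 5543 TPM in the fresh and 1483 TPM in the immortalised sample, Col1a2 at 2816 and 734 TPM, and Col3a1 at 3733 and 427 TPM. The 10 genes of the group summed to 13463 TPM in the fresh and 3359 TPM in the immortalised sample, and 7 were lower and 1 higher. The higher one was Col2a1, the collagen of cartilage, from 0.0116 to 5.76 TPM. Col5a1, which nucleates collagen fibrils, was within 2-fold, at 474 and 262 TPM.

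The main collagens of basement membranes were within 2-fold. Col4a1 was at 2618 TPM in the fresh and 1877 TPM in the immortalised sample and Col4a2 at 885 and 789 TPM. In the immortalised sample Col4a1 stood above Col1a1, so the order of these 2 abundant collagens was opposite to that in the fresh sample. Of 11 network and basement membrane collagens 9 passed the filter, 2 were lower and 1 higher. Col18a1, the source of endostatin, went from 123 to 3.11 TPM and Col15a1 from 13.6 to 0.0342 TPM. Among the associated collagens Col14a1, which decorates fibrils, went from 344 to 0.876 TPM, a difference of -7.52 and the lowest of any protein-coding gene at 50 TPM or more. Col6a3, of the beaded filaments, was at 574 and 555 TPM.

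Laminin chains differed unequally. Of 15 laminin, nidogen and related genes 12 passed the filter, 6 were lower and 0 higher. The alpha chains Lama1, Lama2 and Lama4 went from 22.7 to 0.372, from 30.0 to 2.62 and from 49.5 to 3.89 TPM. Lamb2 was at 123 and 116 TPM, Nid1, which links laminin to collagen, at 389 and 327 TPM, and Hspg2, perlecan, at 250.3 and 294 TPM.

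Elastic fibre genes gave 11 lower and 1 higher of 17 that passed. Eln, elastin itself, went from 61.6 to 0.0429 TPM, and Fbn2, the fibrillin of developing tissue, from 35.8 to 0.167 TPM. Fbn1, the main fibrillin, was at 528 and 243 TPM, and Fbln2, which binds it, at 904 and 1091 TPM. Ltbp1, which stores latent Tgfb in the matrix, was the higher one, from 138 to 299 TPM.

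Proteoglycans were lower in 9 of 16 genes and higher in 0. Dcn, decorin, went from 3201 to 725 TPM, Aspn, asporin, from 139 to 20.03 TPM, and Vcan, versican, from 80.5 to 19.1 TPM. Bgn, biglycan, a close relative of decorin, was at 3016 and 2757 TPM, and Sdc4, a syndecan of focal adhesions, at 81.9 and 78.1 TPM.

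Glycoproteins moved in both directions, with 8 lower and 5 higher of 24 that passed. Thbs1, thrombospondin 1, which activates latent Tgfb, went from 235 to 1121 TPM, while its relative Thbs2 went from 68.8 to 10.3 TPM. Ccn1 and Ccn2, matricellular proteins driven by mechanical signals, went from 253 to 641 and from 492 to 1276 TPM. Postn, periostin, went from 665 to 190.1 TPM and Tgfbi, a Tgfb-induced adhesion protein, from 61.2 to 0.544 TPM. Fn1, fibronectin, was at 2439 and 1543 TPM, and Sparc at 5385 and 3729.7 TPM.

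The machinery that folds and crosslinks collagen was mostly within 2-fold. Of 23 genes 17 were within 2-fold, 4 lower and 2 higher. Serpinh1, the collagen chaperone, was at 1994 and 1545 TPM, and Lox, the crosslinking lysyl oxidase, at 361 and 443 TPM. Loxl2 went from 524 to 152 TPM and Plod2, a lysyl hydroxylase, from 302 to 98.8 TPM. The 2 higher were P4ha3, a prolyl hydroxylase subunit, from 16.9 to 66.0 TPM, and Pcolce2, an enhancer of procollagen cleavage, from 4.97 to 31.7 TPM.

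Matrix proteases were lower in 12 of 25 genes and higher in 1. Mmp2, gelatinase A, went from 103 to 7.22 TPM, Mmp10, stromelysin 2, from 106 to 4.19 TPM, and Mmp12, an elastase also made by macrophages, from 59.8 to 0.460 TPM. Mmp14, the membrane-bound collagenase, was at 649 and 336 TPM, within 2-fold. The higher one was Plaur, the urokinase receptor, from 15.9 to 34.9 TPM. Among the inhibitors Timp2 went from 373 to 792 TPM, while Timp1 was at 159 and 194 TPM.

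**Figure D3:**
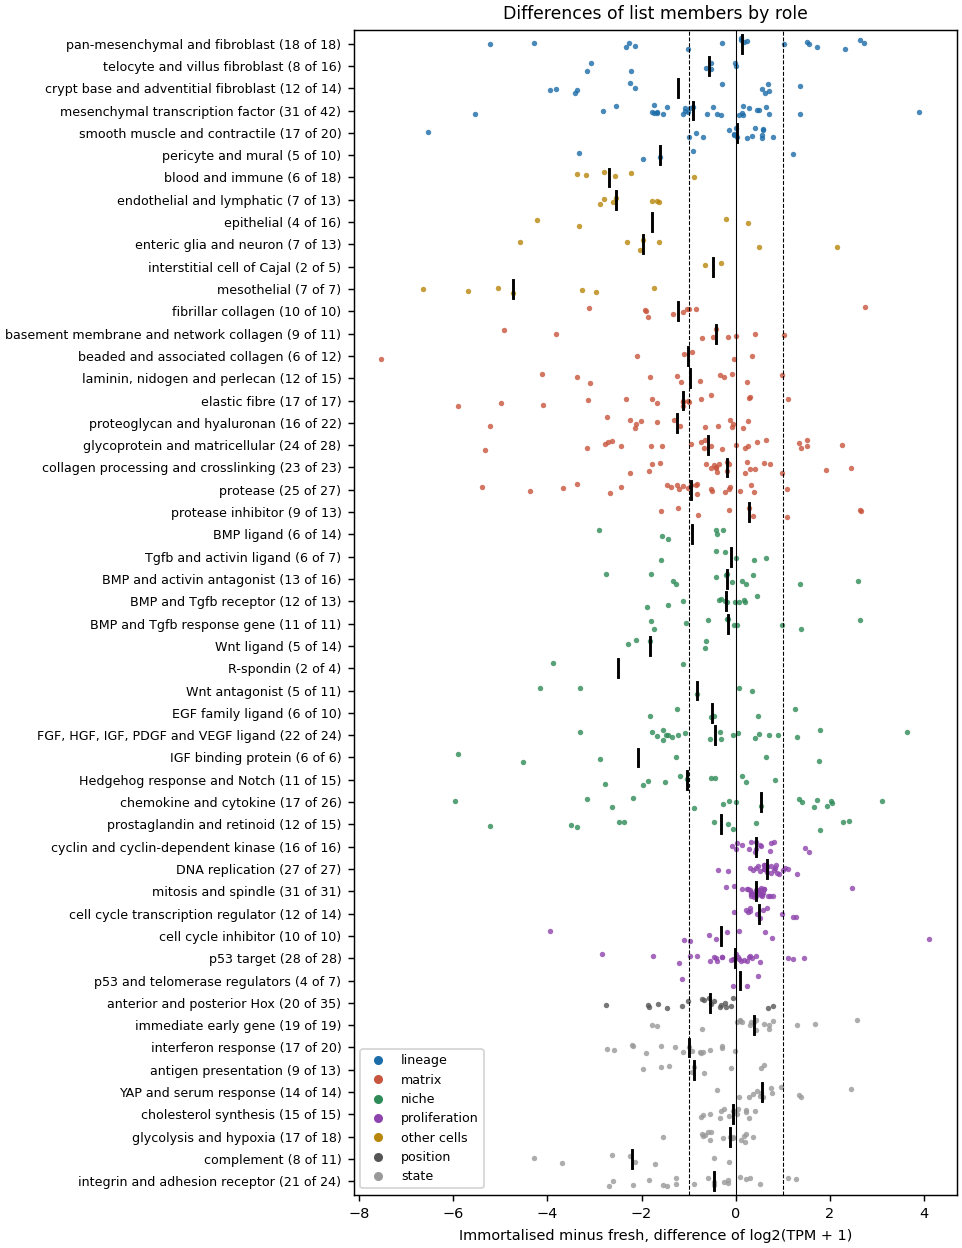
Difference of log2(TPM + 1), immortalised minus fresh, for each list member that passed the filter, by role group, with the numbers of members passing and in the table in parentheses. Points are genes, the thick bar is the median, and dashed lines mark 2-fold. The medians of the 4 groups of cyclins, replication, mitosis and cell cycle regulators lie between 0.43 and 0.66, that of mesothelial genes at -4.74.

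The niche list asked which signals to the epithelium were kept. Of 186 genes 134 passed the filter, 52 were lower, 20 higher and 62 within 2-fold. The lower share was 38.8% and the higher share 14.9%, against 10.7% and 6.26% of all genes.

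Among BMP ligands, Bmp4 was the most abundant apart from Bmp1, a procollagen protease that is no BMP in structure. Bmp4 was at 151 TPM in the fresh and 55.0 TPM in the immortalised sample, a difference of -1.44. Bmp2 was at 1.05 and 0.203 TPM, Bmp3 at 0.103 and 0.262 TPM, and Bmp6 at 6.25 and 1.43 TPM. Bmp5 and Bmp7, the ligands of telocytes, were at 0.718 and 0.219 TPM in the fresh sample and listed at 0 in the immortalised one. Gdf6 went from 29.9 to 3.11 TPM. Of the 5 BMP ligands that the study gave to its organoids, Bmp4 thus was the one above 10 TPM in either sample. Of 14 genes in the group 6 passed, 3 were lower and 0 higher.

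The antagonists of BMP moved in both directions. Grem1, given above, was the most abundant of the group, whose summed level was 2175 TPM in the fresh and 3609 TPM in the immortalised sample. Chrdl1, chordin-like 1, went from 13.7 to 1.19 TPM, Bmper from 59.7 to 23.2 TPM, and Fst, follistatin, from 4.16 to 1.13 TPM. Nog, noggin, was at 3.62 and 4.06 TPM. Of the 6 Tgfb and activin genes that passed, 5 were within 2-fold. Tgfb3 was at 109.9 and 110.2 TPM, Tgfb1 at 40.3 and 34.4 TPM, Tgfb2 at 24.7 and 39.2 TPM, and Inhba, the activin A subunit, at 50.0 and 66.0 TPM, while Inhbb, the activin B subunit, went from 2.61 to 0.206 TPM.

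Most receptors for these ligands were within 2-fold. Of 12 receptor genes that passed, 9 were within 2-fold, 3 lower and 0 higher. Bmpr1a, a type I BMP receptor, was at 46.2 and 37.1 TPM, and Bmpr2, the type II receptor, at 29.1 and 30.8 TPM. Tgfbr1 and Tgfbr2 went from 35.5 to 15.7 and from 79.1 to 28.4 TPM, and Acvrl1 from 35.3 to 8.87 TPM. Of the direct targets, Id1, an inhibitor of differentiation factors, was at 44.5 and 45.5 TPM, and Smad6, an inhibitory Smad, at 10.1 and 9.81 TPM. Id2 went from 122 to 34.3 TPM and Id3 from 286 to 136 TPM, while Smad7, the feedback inhibitor, went from 21.3 to 43.1 TPM, just under the 2-fold line at 0.98.

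Of 5 Wnt ligands that passed the filter 3 were lower, and of 2 R-spondins 2, with 0 higher in either group. Wnt5a, a noncanonical Wnt, was the most abundant Wnt ligand, at 46.6 TPM in the fresh and 29.8 TPM in the immortalised sample, within 2-fold. Wnt2b, a canonical Wnt of gut stroma, went from 6.65 to 0.772 TPM, Wnt4 from 4.16 to 0.0522 TPM and Wnt11 from 3.20 to 0.194 TPM. Rspo3, the R-spondin that supports crypt stem cells, went from 44.7 to 19.9 TPM, and Rspo1 from 13.8 TPM to a listed 0. Of the Wnt antagonists Dkk2 went from 33.3 to 0.924 TPM and Frzb from 46.7 to 3.80 TPM, while Dkk3 was at 117 and 148 TPM and Sfrp1 at 30.4 and 16.8 TPM.

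Growth factors for epithelium and stroma moved in both directions. Fgf7, keratinocyte growth factor, went from 5.15 to 75.3 TPM, the largest positive difference of the niche list. Of 6 EGF family ligands that passed the filter, 1 was higher and 2 lower. Ereg, epiregulin, was within 2-fold, at 29.7 and 41.8 TPM, and Hbegf went from 8.05 to 20.5 TPM. The lower ones were Btc, from 7.82 to 1.49 TPM, and Nrg2, from 1.94 to 0.246 TPM. Csf1, the macrophage growth factor, went from 181 to 623 TPM and Vegfd from 20.5 to 51.6 TPM. Igf1 went from 72.3 to 6.41 TPM, Vegfa from 134 to 38.3 TPM, Pdgfc from 30.3 to 10.5 TPM and Hgf, hepatocyte growth factor, from 6.42 to 1.31 TPM. Fgf2 and Pdgfa were within 2-fold, at 90.7 and 71.6 TPM and at 53.6 and 55.0 TPM. Of 6 IGF binding proteins 4 were lower, led by Igfbp5, from 73.7 to 0.251 TPM, and Igfbp3, from 208 to 8.14 TPM, and Igfbp2 was higher, from 49.6 to 172 TPM.

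**Figure D4:**
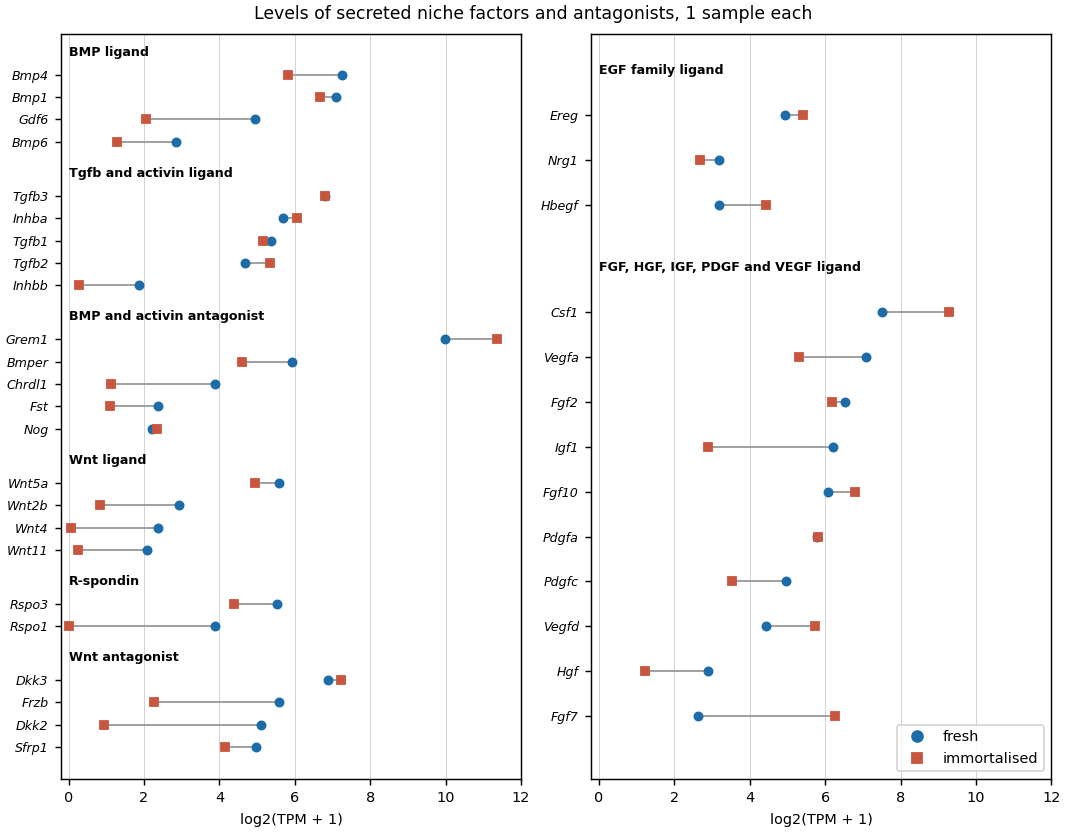
Levels of selected members of the BMP, Tgfb, Wnt, R-spondin, EGF and other growth factor and antagonist groups that passed the filter, as log2(TPM + 1). A circle marks the fresh and a square the immortalised sample, 1 sample each. Chemokines, cytokines, IGF binding proteins and some other named factors are not drawn. Grem1 stands at 1016 and 2621 TPM and Bmp4 at 151 and 55.0 TPM. The marks of the 4 Tgfb and activin genes Tgfb1, Tgfb2, Tgfb3 and Inhba lie close together.

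Hedgehog signals pass from epithelium to mesenchyme, and genes of the pathway were lower or within 2-fold. Ptch1, receptor and target of the pathway, went from 19.1 to 4.54 TPM and Gli1, its target factor, from 1.46 to 0.0878 TPM, which left it under the filter. Of the 15 Hedgehog and Notch genes 11 passed, 6 were lower and 0 higher. Hey1, a Notch target, went from 11.2 to 0.782 TPM, whereas Hes1, another, was at 46.9 and 54.7 TPM, and Jag1, a Notch ligand, at 14.1 and 25.9 TPM.

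Chemokines and cytokines held the highest share of higher genes among the niche groups, with 8 higher and 4 lower of 17 that passed. Cxcl12, the chemokine of stromal niches, went from 342 to 1080.1 TPM, Ccl2, which attracts monocytes, from 29.2 to 121 TPM, Cxcl1, which attracts neutrophils, from 3.52 to 37.6 TPM, and Ccl7 from 16.3 to 42.7 TPM. Il33, an alarmin stored in the nucleus of stromal cells, went from 74.9 to 0.217 TPM, and Ccl11, eotaxin, from 7.26 to 0.805 TPM. Il6 was at 20.7 and 16.8 TPM. Of the prostaglandin enzymes Ptgs2, the inducible cyclooxygenase, went from 33.4 to 166 TPM, while Ptgs1 was at 189 and 168 TPM. The retinoic acid enzymes differed by gene: Aldh1a2 went from 43.6 to 0.205 TPM, Aldh1a3 from 120.3 to 22.5 TPM and Aldh1a1 from 30.1 to 106 TPM. Rarb, a retinoic acid receptor and target, went from 18.4 to 0.714 TPM. Aldh1a2 and Il33 are also made by mesothelium, whose markers were lower alongside, and the part of that in these values was not tested.

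Proliferation genes were expressed in both samples and most stood slightly above the fresh level in the immortalised one. Of 131 genes 126 passed the filter, 12 were higher and 6 lower. Mki67, the marker of cycling cells, was at 22.3 TPM in the fresh and 32.6 TPM in the immortalised sample, Top2a, a topoisomerase of dividing cells, at 58.4 and 73.4 TPM, and Pcna, the replication clamp, at 71.2 and 121 TPM. Of 74 cyclin, replication and mitosis genes, all 74 passed the filter, 69 had a difference above 0, 6 reached 2-fold higher and 0 reached 2-fold lower. The median difference of the 74 was 0.53, against -0.02 over all genes, of which 48.6% had a difference above 0. The share past the line, 8.11%, is near the 6.26% of all genes. The small shift had the same direction in the replication group, at a median of 0.66, and the mitosis group, at 0.44.

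The largest difference among them was Mad2l1, a spindle checkpoint protein, from 21.2 to 122 TPM, a difference of 2.47. The next mitosis gene, Bub1, a kinase of the same checkpoint, was at 11.5 and 20.6 TPM. Mcm10 and Cdc45, which start DNA replication, went from 4.91 to 11.2 and from 6.23 to 12.2 TPM, Pola1, the catalytic subunit of DNA polymerase alpha, from 5.86 to 12.7 TPM, and Uhrf1, which copies DNA methylation after replication, from 15.5 to 30.0 TPM. Cdc6, which loads the replicative helicase, went from 3.08 to 7.74 TPM. Of the cyclins Ccnd1 and Ccne2 reached 2-fold, from 65.5 to 183 and from 4.93 to 16.4 TPM, and Myc, a growth factor-induced regulator, went from 15.4 to 39.0 TPM.

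Promoters of replication and mitosis genes are known for the CCAAT box, which binds NF-Y, for the cell cycle homology region TTTGAA, read by MuvB complexes, and for E2F sites. Promoters of 22 of the 27 replication genes and 28 of the 31 mitosis genes were found by symbol in the RefSeq table, build GRCm38.p6, each from 250 bases before to 50 bases after the start, 300 in all. CCAAT on either strand was in 63.6% of replication and 71.4% of mitosis promoters, against 37.9% of all 27025 promoters. TTTGAA on either strand was in 13.6% and 75% against 18.1%, and TTCGCGC or TTGGCGC on either strand in 36.4% and 10.7% against 3.98%. Among the 9794 promoters of genes that passed the filter the shares were 39.5% for CCAAT, 11.8% for TTTGAA and 7.37% for the E2F-like letters, so the 10.7% of mitosis promoters, 3 of 28, is near that background. The lists were made of genes known for such promoters, so these shares describe the members and test nothing. The promoters below are those of the 4 replication or mitosis genes with the largest differences among those in the table with a match, and of Kif23 and Hmmr, added as the 2 mitosis genes with the largest differences that hold TTTGAA. Capitals mark matches to these motifs, which may overlap, and coordinates are of GRCm38.p6, while the expression files name GRCm39.
Mcm10, chr2:5012742-5013041, minus strand: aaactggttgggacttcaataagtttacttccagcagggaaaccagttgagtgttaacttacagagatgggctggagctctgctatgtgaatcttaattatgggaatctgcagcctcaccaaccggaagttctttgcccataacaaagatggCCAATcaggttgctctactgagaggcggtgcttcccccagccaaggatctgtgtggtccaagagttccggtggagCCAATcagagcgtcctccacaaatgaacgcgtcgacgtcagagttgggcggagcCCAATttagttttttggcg
Pola1, chrX:93632106-93632405, minus strand: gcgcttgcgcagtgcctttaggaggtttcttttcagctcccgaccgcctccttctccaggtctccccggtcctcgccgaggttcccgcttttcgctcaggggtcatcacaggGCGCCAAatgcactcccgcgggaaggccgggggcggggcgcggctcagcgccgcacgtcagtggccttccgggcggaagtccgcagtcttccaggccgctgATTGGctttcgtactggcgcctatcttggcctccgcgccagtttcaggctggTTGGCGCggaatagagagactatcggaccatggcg
Uhrf1, chr17:56303087-56303386, plus strand: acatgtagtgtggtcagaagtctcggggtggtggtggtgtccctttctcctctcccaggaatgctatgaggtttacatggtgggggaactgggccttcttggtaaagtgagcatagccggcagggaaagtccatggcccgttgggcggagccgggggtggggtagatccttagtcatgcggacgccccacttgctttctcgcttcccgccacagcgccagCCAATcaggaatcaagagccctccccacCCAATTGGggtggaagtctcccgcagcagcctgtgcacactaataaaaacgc
Cdc45, chr16:18811923-18812222, minus strand: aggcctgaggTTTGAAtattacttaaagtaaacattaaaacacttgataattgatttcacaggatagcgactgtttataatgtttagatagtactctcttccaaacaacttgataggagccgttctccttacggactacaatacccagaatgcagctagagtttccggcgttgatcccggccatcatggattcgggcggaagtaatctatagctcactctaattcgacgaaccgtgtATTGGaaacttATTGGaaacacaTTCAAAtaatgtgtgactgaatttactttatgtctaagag
Kif23, chr9:61946750-61947049, minus strand: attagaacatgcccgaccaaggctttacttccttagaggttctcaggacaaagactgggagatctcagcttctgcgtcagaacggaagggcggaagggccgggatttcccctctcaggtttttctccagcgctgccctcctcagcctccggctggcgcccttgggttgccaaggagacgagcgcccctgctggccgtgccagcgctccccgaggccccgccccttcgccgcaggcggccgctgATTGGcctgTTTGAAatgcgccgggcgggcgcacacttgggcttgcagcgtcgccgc
Hmmr, chr11:40733388-40733687, minus strand: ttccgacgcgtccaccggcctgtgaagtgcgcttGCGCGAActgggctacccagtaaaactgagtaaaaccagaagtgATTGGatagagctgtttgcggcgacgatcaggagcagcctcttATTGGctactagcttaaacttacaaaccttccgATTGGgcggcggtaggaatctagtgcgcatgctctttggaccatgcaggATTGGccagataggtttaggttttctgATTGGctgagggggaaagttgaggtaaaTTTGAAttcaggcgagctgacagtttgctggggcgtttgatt
Mcm10 and Uhrf1 each held 3 CCAAT matches and no match to the other motifs. Pola1 held 1 CCAAT and 2 E2F-like matches, and Cdc45 held 2 CCAAT and 2 TTTGAA matches. Kif23, a kinesin of cell division, from 26.4 to 44.2 TPM, held 1 CCAAT and 1 TTTGAA match. Hmmr, a spindle-associated hyaluronan receptor, from 11.3 to 18.9 TPM, held 5 CCAAT, 1 TTTGAA and 1 E2F-like match.

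The cell cycle inhibitors held the largest positive difference of the proliferation list. Cdkn2a was at 18.3 TPM in the fresh and 331 TPM in the immortalised sample, a difference of 4.11. This locus encodes both the kinase inhibitor p16Ink4a and p19Arf, which protects p53, and the gene-level values cannot tell them apart. Its neighbour Cdkn2b was at 24.9 and 43.2 TPM. Cdkn1a, the p53 target p21, was at 292 and 147 TPM, a difference of -0.98 just inside the 2-fold line, and Cdkn1b, p27, went from 60.1 to 27.4 TPM. Gas1, a growth arrest gene and Hedgehog coreceptor, went from 43.4 to 1.88 TPM.

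Targets of p53 were called evenly in both directions. Of 28 genes, which all passed the filter, 3 were higher, 3 lower and 22 within 2-fold, with a median of -0.02 against -0.02 over all genes. Mdm2, the ligase that p53 induces, was at 85.2 and 115 TPM, Ccng1 at 206 and 222 TPM, and Bax, a death effector, at 322 and 264 TPM. The lower ones were Perp, from 6.66 to 0.0605 TPM, Gadd45a, a stress sensor, from 143 to 41.7 TPM, and Trp53inp1, from 51.9 to 22.1 TPM. The higher ones were Fas, a death receptor, from 11.5 to 33.2 TPM, Plk2, from 47.3 to 111 TPM, and Plk3, from 4.81 to 11.5 TPM. Trp53 itself was at 65.7 and 91.7 TPM, and Tert, the telomerase enzyme, at 3.15 and 3.01 TPM. E6 acts on the p53 protein, which was not measured here.

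Protein-coding genes that went from at least 10 TPM in the fresh sample to under 1 TPM in the immortalised sample numbered 79, and 9 went the other way. Over all features, 160 (1.87%) of the 8550 at 10 TPM or more in the fresh sample went under 1 TPM. Of the 8295 at 10 TPM or more in the immortalised sample, 130 (1.57%) were under 1 TPM in the fresh one. Only 79 of the 160 and 9 of the 130 were protein-coding. The lists hold almost only protein-coding genes, and an exact background share over such genes alone was not computed. Among protein-coding genes at 10 TPM or more in the fresh sample, 7329 stayed within 2-fold and 543 were lower yet kept at least 1 TPM. Beside these the 79 make a smaller share than the 1.87% over all features, so 1.87% is too high a background for the lists. The share that went under 1 TPM was 8.43% of 83 niche genes, 7.81% of 64 lineage genes and 7.2% of 125 matrix genes, and 0 of 96 proliferation genes. The niche genes were Rspo1, Dkk2, Igfbp5, Hey1, Il33, Aldh1a2 and Rarb, and the lineage genes Cd55, Col15a1, Tcf21, Gata6 and Ndufa4l2. Among the marker genes of other cell types 6 of 11 went under 1 TPM, of which 4 are mesothelial. Of the 79 genes, 51 had a promoter in the RefSeq table, with a median observed to expected ratio of CG dinucleotides of 0.477. The ratio was 0.812 in 5955 genes from at least 10 TPM that stayed within 2-fold. It was 0.677 in 416 genes that were lower yet kept at least 1 TPM. With 51 of 79 genes matched, the match is too thin, so these ratios are void as a check and stand as a description.

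Over the whole table, the rule of size named 12 genes each way at 50 TPM or more. Of the 12 highest differences 9 were small RNAs or unnamed features listed at 0 in the fresh sample, and of the 12 lowest 6 were such features listed at 0 in the immortalised sample. The protein-coding genes among them were C1qtnf3, a secreted relative of adiponectin, from 3.51 to 348 TPM, Hmga1b, from 0.256 to 70.0 TPM, and Cdkn2a on the high side. Hmga1b is a near-identical copy of Hmga1, from 41.6 to 149.6 TPM, so the counting could split reads between them and its value is uncertain. On the low side they were Col14a1, Upk1b, Des, Il33 and Eln, all given above, and Trf, transferrin, from 89.9 to 0.0888 TPM. A ranking of protein-coding genes alone, added after the values were seen, brought in, among others, Cemip, a hyaluronan-binding protein, from 12.8 to 168 TPM, and Prkg2, a cGMP-dependent kinase, from 7.92 to 85.6 TPM, and on the low side Chchd10, a mitochondrial protein, from 127 to 2.07 TPM.

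Genes of chromosome 12 were lower in the immortalised sample along the whole chromosome. The comparison took the 9070 protein-coding genes of the autosomes and the X chromosome at 5 TPM or more in both samples, placed on chromosomes by GENCODE M21, and subtracted the median of all of them. The 268 genes of chromosome 12 had a median log2 ratio of -0.87, that is 0.548 of the fresh level, and 94.8% lay below 0. The medians of the other 19 chromosomes lay between -0.18 and 0.22, and 48.6% of their genes together lay below 0. In 5 stretches along chromosome 12 the medians lay between -0.93 and -0.71. At least 2-fold lower were 36.9% of its genes, against 4.23% of the genes on the other chromosomes. Set against the mean of the 3 untreated organoid samples of the other table, each comparison centred on its own median, chromosome 12 stood at -0.03 in the fresh and -0.84 in the immortalised sample. In that comparison the other chromosomes lay between -0.16 and 0.14 for the fresh and between -0.18 and 0.23 for the immortalised sample. The 2 tables were scaled separately, and DNA copy number was not measured.

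Of the list members that passed the filter 16 lie on chromosome 12, with 7 lower, 0 higher and a median of -0.77. They include Id2, Lamb1, from 202 to 89.7 TPM, Fbln5, an elastic fibre protein, from 312 to 90.3 TPM, Ltbp2, from 92.4 to 45.3 TPM, and Sdc1, a syndecan, from 41.7 to 16.2 TPM. Tgfb3 and Twist1, a factor of the mesenchymal state, lie there too and were not lower, at 109.9 and 110.2 TPM and at 9.81 and 13.7 TPM. Members on other chromosomes numbered 635, with 201 lower, 60 higher and a median of -0.22.

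**Figure D5:**
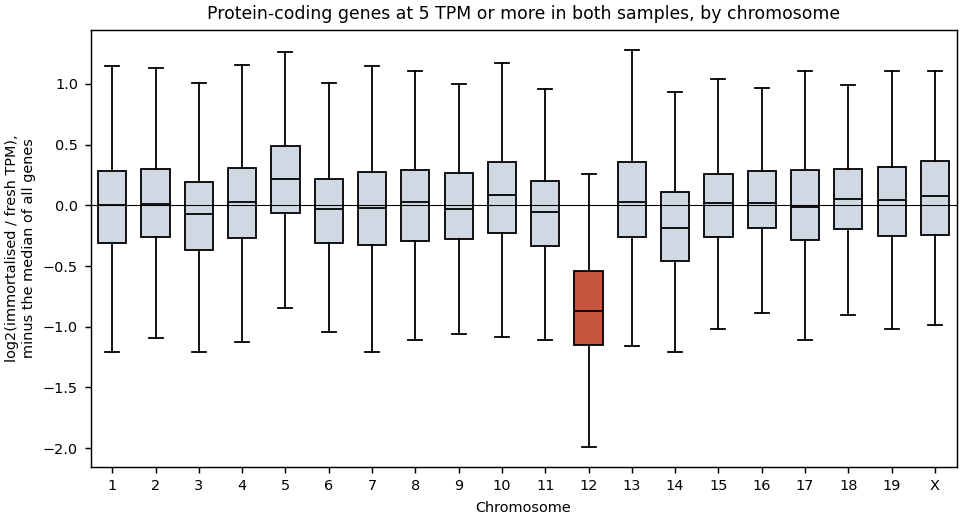
Log2 ratio of immortalised to fresh TPM, minus the median of all genes used, for protein-coding genes at 5 TPM or more in both samples, by chromosome. Boxes show the quartiles and the median, whiskers reach the farthest value within 1.5 box lengths, and points beyond are not drawn. Chromosome 12 has its median at -0.87, and the other 19 chromosomes lie between -0.18 and 0.22.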

How the data were processed

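The series measured mRNA in 28 samples, of which the 2 mesenchymal samples are reported here. The deposited values are TPM by the authors: each column of the mesenchymal table sums to 1000000 over 55416 genes, although the file is named as normalized counts. Per the submitters' processing notes, Trim Galore, Salmon and DESeq2 were used with build GRCm39, without a stated role or version. TPM keeps no depth, so no count test was possible and the depth is unknown. Columns were matched to samples by title, with 0 columns of per-sample values left over.

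Differences are immortalised minus fresh on log2(TPM + 1), among genes at a mean of at least 1 TPM, with a line at 2-fold. No test was run with 1 sample a group. The 7 gene lists with 53 role groups held 834 names, which gave 832 genes, with Lin54 not analysed here. Where a symbol had more than 1 ID, the ID with the higher mean was used. The members and lists were chosen with earlier results of these data known. Any list member could be named, with preference per role for up to 4 members with the largest difference each way among those at 5 TPM or more, the 2 with the highest level and 2 nearest to no difference, and over all genes the 12 highest and the 12 lowest differences at 50 TPM or more, predicted genes left out. Chromosomes and biotypes came from GENCODE M21 by gene ID, which matched 52083 IDs. Some list members that count in the totals are not reported here by name. The code that makes the calls was tested on simulated data with known folds, which checks the arithmetic and not the differences reported. The work used Python 3.11.15, numpy 2.4.6 and pandas 2.3.3. Alternatives were 11 planned ones in pseudocount, filter, scaling, fold line and gene set, and 2 added after seeing the data.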

Additional observations from a re-analysis of the deposited data

How the results depend on the processing

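No paired analysis was possible because each state has 1 sample and no test was made. Of 683 listed or named genes, 293 were past the 2-fold line, and 214 of these stayed past it under each of 11 settings, other than the fold line, that gave them a value. No called gene changed direction under the 13 alternatives. The counts that moved by over 1.5 times follow, as higher and lower in the immortalised sample, against 854 and 1464 over all genes. With a pseudocount of 5 they were 444 and 698, with 21 lineage and 34 niche genes lower and 7 proliferation genes higher. With a mean of at least 10 TPM they were 368 and 542, with 17 lineage and 28 niche genes lower and 7 proliferation genes higher. At a 4-fold line they were 305 and 547, with 4 and 19 lineage, 5 and 32 matrix, 8 and 21 niche, and 2 and 2 proliferation genes. At a 1.5-fold line they were 1833 and 2589, with 17 lineage and 41 proliferation genes higher. The higher filter changes which genes enter, the fold lines move the threshold, and the larger pseudocount shrinks the differences of low genes. Rescaling over protein-coding genes gave 591 and 1270, and leaving out chromosome 12 gave 845 and 1299, both added after seeing the data. Quantile normalization gave 1022 and 1242. The values compare single libraries of unknown depth, and levels under 1 TPM in particular may rest on few reads.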

Other observations

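Further groups of genes differed between the samples. Of 17 interferon response genes that passed the filter, 9 were lower and 0 higher in the immortalised sample, among them Isg15, a ubiquitin-like modifier, from 41.8 to 6.14 TPM, and Oasl2, from 26.0 to 3.08 TPM. Of 8 complement genes 6 were lower and 0 higher, among them C4b, from 15.7 to 0.299 TPM, and C1s1, a protease of the classical pathway, from 122 to 36.5 TPM. Of 14 genes driven by YAP or serum response factor 3 were higher and 0 lower, with Ankrd1, a YAP target, from 54.3 to 301 TPM. Of 15 cholesterol synthesis genes 0 passed the 2-fold line in either direction, and of 17 glycolysis and hypoxia genes 1 did, Egln3, from 7.78 to 1.99 TPM, which lies on chromosome 12. Immediate early genes, which dissociation can induce, were higher in 3 and lower in 2 of 19, with Fos at 19.98 and 21.8 TPM and Egr1 at 52.5 and 130.5 TPM. Among integrins Itgb3, of the vitronectin receptor, went from 41.2 to 5.54 TPM and Itgav, its partner, from 119 to 258 TPM.

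Xist, the RNA that coats the inactive X chromosome, was at 98.8 TPM in the fresh and 1.497 TPM in the immortalised sample, and the Y-linked genes Ddx3y, Eif2s3y, Kdm5d and Uty were listed at 0 in both. The 279 X-linked genes at 5 TPM or more in both samples had a centred median of 0.08. Apart from chromosome 12, the chromosomes farthest from 0 were chromosome 5, at 0.22 with 29.9% of 589 genes below 0, and chromosome 14, at -0.18 with 67.9% of 302 genes below 0. H19, an imprinted non-coding RNA, went from 35.8 to 0.618 TPM, while its neighbour Igf2 was at 2.55 and 3.74 TPM. Trac, annotated as the constant region of a T cell receptor chain, was at 439.8 and 17.9 TPM while Cd3e was listed at 0 in both samples. Stag3, a cohesin subunit of meiosis, went from 0.979 to 45.8 TPM. Hmga2, a chromatin protein of embryonic and transformed cells, went from 32.2 to 174 TPM.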
